A study of Mus musculus with 8 samples.

Results

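The BMP and GDF ligand genes Bmp2, Bmp4, Bmp5, Bmp6, Bmp7, Gdf5, Gdf6, Gdf11 and Inhba were examined for regions enriched in SMAD4-chromatin complexes. These 9 genes, among the 22350 protein-coding genes of the annotation on the chromosomes that carry peaks, were listed by name, with earlier results of these data known. All peaks were taken whose centre lies within 100 kb, and separately within 500 kb, of the annotated 5′ end of a gene, which gave 7 of the 2073 peaks at E9.5 and 28 of the 6185 peaks at E10.5. The peaks come from ChIP-seq of mouse limb buds, with 8 samples in all, 2 SMAD4 ChIP samples and 2 input DNA samples at each stage, all of strain NMRI. All embryos were homozygous for a Smad4 allele that carries a 3xFLAG epitope tag, and chromatin was precipitated with the M2 anti-FLAG antibody, so that input DNA is the only control. For E9.5, about 80 embryos were pooled per replicate, and forelimb buds together with trunk tissue were taken, which the protocol dates to E9.75. For E10.5, about 100 embryos were pooled, and both fore- and hindlimb buds were taken, so that stage and tissue cannot be told apart. Peaks record binding and not expression, and the labelled tissue was therefore not checked against marker genes.

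BMPs, GDFs and activins are secreted dimers of the TGF-β superfamily that bind pairs of type I and type II receptors, which phosphorylate receptor SMADs. These enter the nucleus with SMAD4. SMAD1, SMAD5 and SMAD8 transmit most BMP and GDF5/GDF6 signals, whereas SMAD2 and SMAD3 transmit signals of activins and GDF11. In limb buds, Bmp2, Bmp4 and Bmp7 are expressed in ectoderm and mesenchyme and act in early patterning, in the apical ectodermal ridge and later in chondrogenesis. SMAD4 recognises the sequence CAGAC, whose reverse complement is GTCTG, and SMAD1 and SMAD5 bind GC-rich sites such as GGCGCC.

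The sequences below come from the peaks with their centre within 5 kb of the 5′ end of Bmp4, Gdf6 or Gdf11, from the nearest E10.5 peak to Bmp4, and from the only region within 500 kb of a ligand gene with overlapping peaks of both stages. Each is the stretch of 150 bp of the peak, outside annotated UTRs and non-coding exons, with the most matches to CAGAC and GGCGCC on either strand. Capitals mark the matches, which can overlap. All were read from mm9 and are written 5′ to 3′ on the strand of the gene named. The Bmp4 stretch of the E9.5 peak (chr14:47007720-47007869, minus strand) lies in an intron of Bmp4, and the Bmp4 stretch of the E10.5 peak (chr14:47062049-47062198, minus strand) lies -51.8 kb from the gene. The Gdf6 stretch (chr4:9770806-9770955, plus strand) lies -0.638 kb from its 5′ end, and the Gdf11 stretch (chr10:128328425-128328574, minus strand) lies wholly within coding sequence of Gdf11. The Pmepa1 stretch (chr2:173101066-173101215, minus strand) lies in an intron of Pmepa1, upstream of Bmp7.
Bmp4, E9.5: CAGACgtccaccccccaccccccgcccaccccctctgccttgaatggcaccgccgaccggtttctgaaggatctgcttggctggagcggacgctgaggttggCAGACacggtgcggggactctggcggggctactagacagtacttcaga
Bmp4, E10.5: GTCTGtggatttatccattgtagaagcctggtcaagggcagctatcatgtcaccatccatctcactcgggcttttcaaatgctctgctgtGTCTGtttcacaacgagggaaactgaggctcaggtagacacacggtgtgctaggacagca
Gdf6, E10.5: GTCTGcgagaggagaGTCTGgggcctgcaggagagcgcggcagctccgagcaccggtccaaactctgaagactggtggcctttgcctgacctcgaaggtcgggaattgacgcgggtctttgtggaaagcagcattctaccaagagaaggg
Gdf11, E10.5: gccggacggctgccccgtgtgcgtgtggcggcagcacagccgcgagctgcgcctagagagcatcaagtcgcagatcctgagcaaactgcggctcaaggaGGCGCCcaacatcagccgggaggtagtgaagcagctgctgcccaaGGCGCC
Pmepa1, both stages: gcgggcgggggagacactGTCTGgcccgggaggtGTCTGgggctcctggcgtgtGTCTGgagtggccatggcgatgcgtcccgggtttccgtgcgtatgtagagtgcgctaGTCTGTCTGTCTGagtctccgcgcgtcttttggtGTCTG

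Each stage is represented by 1 list in which the replicates had been combined, so that no value has an error between replicates and the sequencing depth behind the lists is unknown. Peak scores ran from 31.6 to 3100 with a median of 56.3 at E9.5 and from 31.4 to 2155 with a median of 59.8 at E10.5. The score has no stated unit and was used to rank peaks within a list, where rank 1 is the best. The E10.5 peaks were wider, with medians of 2552 bp against 1244 bp, and no gene without a peak is shown to be unbound.

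To determine which ligand genes lie close to SMAD4-bound regions, peaks were counted around the 5′ end of each gene. At E9.5, only Bmp4 had a peak within 100 kb, so 1 of 9 genes had one, compared with 20.5% of all protein-coding genes. At E10.5, Bmp4, Gdf5, Gdf6 and Gdf11 had peaks within this distance, hence 4 of 9 genes, compared with 52.9% of all protein-coding genes. The E10.5 list is the longer one, and when it was cut to the length of the E9.5 list, 2 genes were left. Within 500 kb, 4 of 9 genes had an E9.5 peak (Bmp4, Bmp7, Gdf6 and Gdf11) and 7 of 9 an E10.5 peak (Bmp4, Bmp5, Bmp6, Bmp7, Gdf5, Gdf6 and Gdf11), against a background of 60.6% and 82.8%. With 9 genes, each of these counts was close to its background. Within 500 kb, the ligand genes had a median of 0 peaks of the E9.5 list and 2 of the E10.5 list, compared with 1 and 3 for all protein-coding genes. Neither Bmp2 nor Inhba had a peak within 500 kb at either stage, which held for 13.9% of all protein-coding genes.

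**Figure D1:**
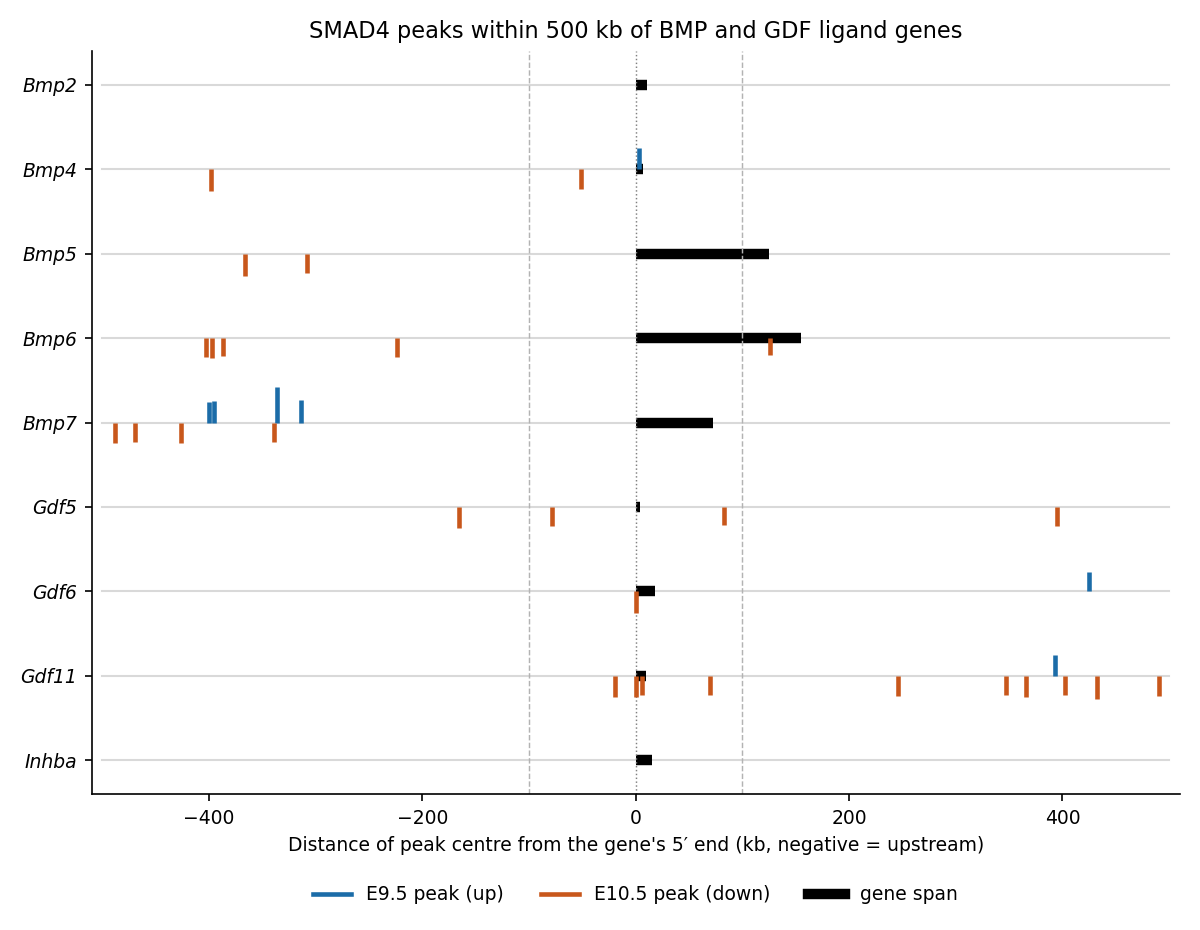
Peaks around the 9 ligand genes. The x axis gives the distance of the peak centre from the 5′ end of each gene in kb, with the gene span as a black bar. Blue ticks above the line are E9.5 peaks and orange ticks below it E10.5 peaks, with tick length growing with the logarithm of the score, and dashed lines mark 100 kb. Only Bmp4 has an E9.5 peak between the dashed lines, whereas 4 genes have E10.5 peaks there and the lines of Bmp2 and Inhba are empty. The E10.5 list is the longer one, and with lists of equal length 2 genes had E10.5 peaks within 100 kb.

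Bmp2 and Bmp4 encode closely related ligands, of which mesenchymal BMP4 is required early for induction of the apical ectodermal ridge and BMP2 is expressed in the posterior mesenchyme and the ridge. Bmp4 (chr14:47003195-47010344, minus strand) was the only ligand gene with an E9.5 peak at the gene. This peak, chr14:47004885-47009592, had a score of 70.2 and rank 468 of 2073, that is within the best 22.6% of its list. With a width of 4708 bp it covered 65.8% of the gene span, from 0.752 to 5.46 kb downstream of the 5′ end, and its centre lay in an intron. All 3 annotated transcript starts of Bmp4, which lie within 0.134 kb of each other, were outside it. For comparison, 2.64% of protein-coding genes had a peak centre of this list within 5 kb of the 5′ end, and 5.29% overlapped an E9.5 peak with their span. No E10.5 peak overlapped Bmp4.

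At E10.5, the nearest peak to Bmp4 was chr14:47060633-47062431, which lies -51.2 kb from the 5′ end, where negative values are upstream. It had a score of 62.3 and rank 2727 of 6185, it was intergenic, and no protein-coding 5′ end was closer to its centre than that of Bmp4. A further E10.5 peak within 500 kb, chr14:47407020-47408734 (score 90.3, rank 768), was centred in a coding exon 0.209 kb downstream of the 5′ end of Cnih and -398 kb from Bmp4. The peaks listed around Bmp4 hence did not overlap between the stages. Bmp2 (chr2:133377895-133388621, plus strand) had no peak within 500 kb, and no other protein-coding gene starts within this distance either. Its nearest E9.5 peak was centred -1389 kb away, closest to the 5′ end of Slc23a2 (score 58.4, rank 927), and its nearest E10.5 peak -606 kb away at the 5′ end of Fermt1 (score 55.5, rank 3893).

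Bmp5, Bmp6 and Bmp7 encode a second subfamily, with functions in skeletal and kidney development. None of these genes had a peak within 100 kb at either stage. Bmp5 (chr9:75623171-75748117, plus strand) lacked E9.5 peaks within 500 kb and had 2 E10.5 peaks. The better of these, chr9:75256623-75258417 (score 99.3, rank 533), was -366 kb away and 0.292 kb from the 5′ end of Mapk6, which encodes a MAP kinase, and the other, chr9:75314580-75316722, had rank 4075. Bmp6 (chr13:38436995-38592183, plus strand) likewise lacked E9.5 peaks and had 5 E10.5 peaks. The best-scored of them, chr13:38036955-38043111 (score 65.1, rank 2344), lay in an intron of Rreb1, a zinc finger transcription factor gene, at -397 kb. The only peak inside Bmp6 was chr13:38562377-38564183, located in an intron 126 kb downstream of the 5′ end. With a score of 34.4 and rank 6118 of 6185 it was among the lowest-scored peaks of its list.

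Bmp7 (chr2:172693513-172765822, minus strand) had 4 peaks within 500 kb at each stage, all of them more than 300 kb upstream. This number or more was reached by 5.27% of protein-coding genes at E9.5 and by 49.7% at E10.5. The 4 E9.5 peaks were closest to Pmepa1, which encodes a membrane protein that restrains TGF-β signalling by binding receptor SMADs. They were chr2:173077852-173080829 (score 94.1, rank 235), chr2:173099870-173102875 (score 1383, rank 4), chr2:173159071-173162558 (score 79.5, rank 343) and chr2:173165392-173166923 (score 71.1, rank 445), at -314, -336, -395 and -400.3 kb from Bmp7. The rank 4 peak is centred 0.662 kb downstream of the Pmepa1 5′ end, and none of these peaks is closer to the 5′ end of Bmp7 than to that of Pmepa1. At E10.5 the 4 peaks lay at -339, -426, -469 and -488 kb with scores between 52.5 and 67.2, and the best of them, chr2:173250127-173256613, had rank 2105. Just beyond the 500 kb limit lay chr2:173263742-173271379 at -502 kb (score 84.9, rank 948), and just inside it, besides the Bmp7 peak at -488 kb, a peak 491 kb from Gdf11. At the 100 kb limit, the closest peaks inside and outside were at 82.7 kb from Gdf5 and at 126 kb from Bmp6.

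Gdf5 and Gdf6 encode related ligands that act in joint formation. Gdf6 (chr4:9771519-9789492, plus strand) had the E10.5 peak chr4:9769886-9772937 across its 5′ end, with its centre at -0.108 kb, a score of 82.5 and rank 1051 (best 17% of the list). It was the best-scored peak within 100 kb of any of the ligand genes at E10.5. The only E9.5 peak within 500 kb of Gdf6, chr4:10195874-10196400, was 425 kb downstream and 527 bp wide, the narrowest of the ligand genes' peaks (score 56.3, rank 1035). Gdf5 (chr2:155766759-155771103, minus strand) lacked E9.5 peaks within 500 kb and had 4 E10.5 peaks. The 2 within 100 kb were chr2:155687141-155689656, 82.7 kb downstream in an intron of Uqcc (score 39.8, rank 5862), and chr2:155848017-155851091, -78.5 kb upstream in an intron of Fer1l4 (score 51.2, rank 4963). Both were thus in the low-scored part of the list, and the best-scored peak within 500 kb, chr2:155936665-155938055 (score 75.8, rank 1382), was 0.335 kb from the 5′ end of Cpne1.

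Gdf11 and Inhba encode ligands whose receptors act through SMAD2 and SMAD3: GDF11 acts in axial patterning, and Inhba encodes the βA subunit of activin and inhibin. Gdf11 (chr10:128319351-128328774, minus strand) lacked E9.5 peaks within 100 kb and had 4 E10.5 peaks. The peak chr10:128326961-128330578 (score 68.6, rank 1957) covered the 5′ end of the gene, its centre lay 0.005 kb from it in the 5′ UTR, and it extended 1.8 kb upstream and 1.81 kb downstream. The peak chr10:128321813-128324100 (rank 5363) lay in the gene body, centred in an intron 5.82 kb downstream of the 5′ end. The others were chr10:128346010-128349779 at -19.1 kb, in an intron of Cd63 (score 70.6, rank 1754), and chr10:128258122-128259615 at 69.9 kb, at the 5′ end of Sarnp (score 52.7, rank 4565). In total, 10 E10.5 peaks were found within 500 kb of Gdf11, a number reached by 12.3% of all protein-coding genes. The best-scored of them, chr10:127895343-127897340 (score 111, rank 340), was 432 kb away at the 5′ end of Smarcc2, which encodes a subunit of SWI/SNF chromatin remodelling complexes. The single E9.5 peak within 500 kb, chr10:127935477-127936958 (score 70.2, rank 467), was 393 kb away and at -0.476 kb from the 5′ end of Myl6b. Inhba (chr13:16103684-16119044, plus strand) had no peak even within 1 Mb, with the nearest 1949 kb away at E9.5 (score 45.9, rank 1736) and -1201 kb away at E10.5 (score 39.6, rank 5880).

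**Figure D2:**
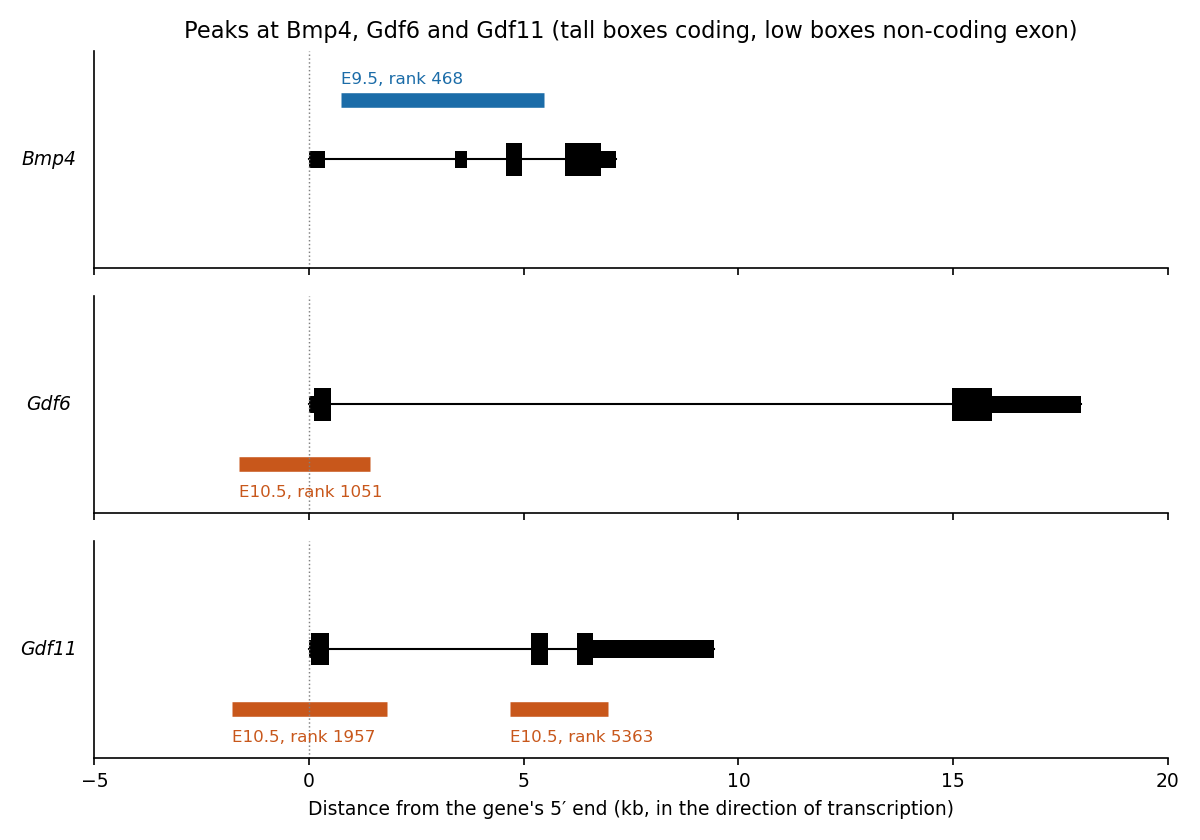
Peaks at the 3 ligand genes with a peak centre within 5 kb of the 5′ end. The x axis gives the distance from the 5′ end in kb in the direction of transcription. Tall black boxes are coding and low boxes non-coding parts of exons, blue bars E9.5 peaks and orange bars E10.5 peaks with their rank. The Bmp4 peak begins 0.752 kb downstream of the 5′ end, whereas the Gdf6 and Gdf11 peaks with ranks 1051 and 1957 cover the 5′ end.

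Thus, 2 of 9 genes, Gdf6 and Gdf11, had an E10.5 peak centre within 5 kb of their 5′ end, compared with 13.0% of all protein-coding genes. The span of 3 of the 9 genes, Bmp6, Gdf6 and Gdf11, overlapped an E10.5 peak, compared with 19.4% of all protein-coding genes. Whether differences between the stages at these genes exceed the variation between replicates was not tested, because the lists hold no value per replicate.

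The distance to the nearest peak was determined next. At E9.5, its median over the ligand genes was 870.2 kb, with a range from 3.11 kb for Bmp4 to 2613 kb for Bmp6, compared with a median of 349.7 kb over all protein-coding genes. At E10.5 the median was 126 kb, with a range from 0.005 kb for Gdf11 to 1201 kb for Inhba, compared with 87.8 kb. From the nearest to the farthest E9.5 peak, the order was Bmp4, Bmp7, Gdf11, Gdf6, Gdf5, Bmp2, Bmp5, Inhba and Bmp6. At E10.5 it was Gdf11, Gdf6, Bmp4, Gdf5, Bmp6, Bmp5, Bmp7, Bmp2 and Inhba. Bmp2 and Inhba hence lay far from peaks at both stages. For the E10.5 list, 14.7% of all protein-coding genes were as far from a peak as Bmp2 or farther, and 6.75% as far as Inhba.

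**Figure D3:**
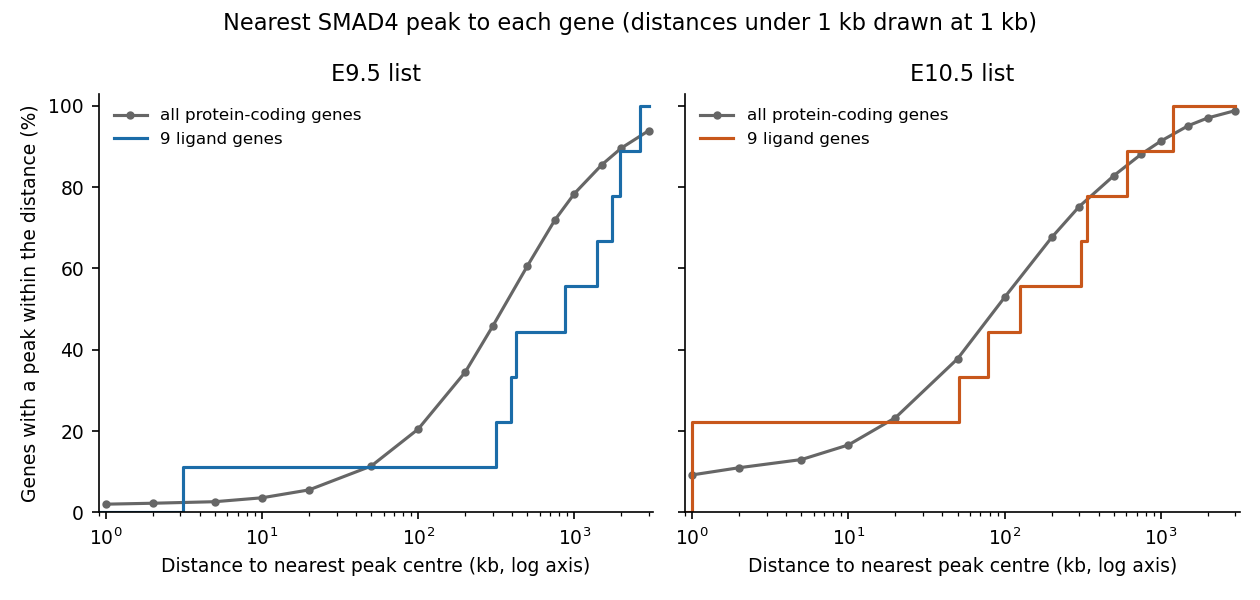
Share of genes in percent with a peak centre within a given distance in kb (log axis), for the E9.5 list on the left and the E10.5 list on the right. Grey lines with points are all 22350 protein-coding genes, and coloured steps are the 9 ligand genes. The step at 3.11 kb on the left is Bmp4, and the next gene follows at 314 kb, where the grey line is already above it.

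The ligand genes differ in how many other genes surround them. At E9.5 the number of peaks within 500 kb did not follow this number among them, as Gdf5 had 0 peaks and Bmp7, with 11 other 5′ ends, had 4. At E10.5 the counts largely followed it, from 0 peaks at Bmp2 and Inhba to 10 at Gdf11. The 5′ ends of 49 other protein-coding genes lay within 500 kb of Gdf11, 29 within 500 kb of Gdf5, 1 within 500 kb of Inhba and 0 within 500 kb of Bmp2, and the median over all protein-coding genes was 15. Across the 22350 protein-coding genes, the rank correlation (Spearman) of this number with the number of peaks within 500 kb was 0.103 for the E9.5 list and 0.426 for the E10.5 list, where neighbouring genes share peaks and are not independent. Of the 635 protein-coding genes with at most 1 other 5′ end within 500 kb, 53.4% had no peak of either stage within this distance. The contribution of gene density to the absence of peaks at Bmp2 and Inhba was not tested.

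The nearest protein-coding 5′ end was then determined for each peak, without a share over all genes for comparison. In total, 1 of 7 E9.5 peaks (at Bmp4) and 4 of 28 E10.5 peaks (Bmp4, Gdf6 and 2 at Gdf11) had the 5′ end of a ligand gene as their nearest protein-coding 5′ end. In addition, 2 E9.5 and 12 E10.5 peaks lay within 5 kb of the 5′ end of another gene. With the peaks at Bmp4, Gdf6 and Gdf11 themselves, 3 of 7 E9.5 peaks and 14 of 28 E10.5 peaks were within 5 kb of a protein-coding 5′ end, compared with 25.7% and 41.0% of the whole lists.

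The scores of the peaks near ligand genes were compared with their lists by rank. At E9.5, the 7 peaks had a median score of 71.1 and their median rank lay at 21.5% of the list, from rank 4 at Pmepa1 to rank 1035 downstream of Gdf6. Of these peaks, 4 lie upstream of Bmp7 with Pmepa1 as their nearest gene, and the median is the peak of rank 445 among them. The E9.5 peaks within 500 kb of Bmp4, Gdf11 and Gdf6 scored 70.2, 70.2 and 56.3. At E10.5, the 28 peaks had a median score of 56.9 and a median rank at 59% of the list, from rank 340 at Smarcc2 to rank 6118 in Bmp6. Within 100 kb, the 8 E10.5 peaks scored between 39.8 and 82.5. The median width was 2978 bp at E9.5 and 2818 bp at E10.5, compared with 1244 and 2552 bp over the lists. The E9.5 median width is that of the peak of rank 235, which is also nearest to Pmepa1.

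**Figure D4:**
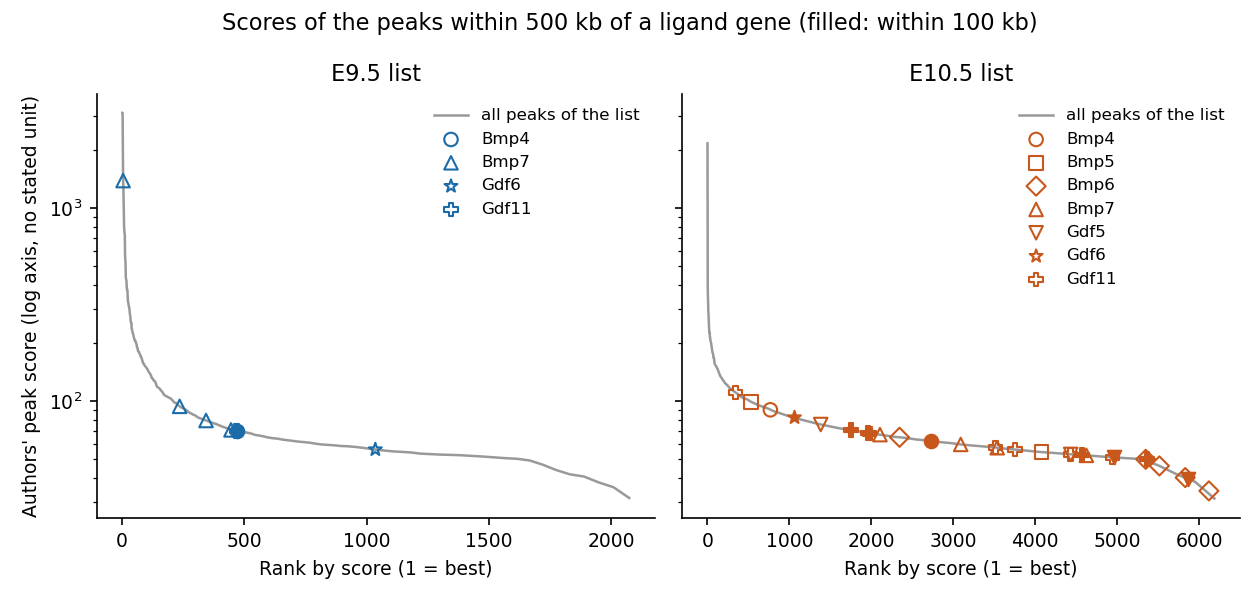
Scores of the peaks within 500 kb of a ligand gene (symbols, one shape per gene) on the score curve of the whole list (grey line), with the rank on the x axis and the authors' score, which has no stated unit, on a logarithmic y axis. Filled symbols are peaks within 100 kb. The E9.5 peak upstream of Bmp7 at rank 4 stands at 1383, while the E10.5 peaks lie between 34.4 and 111.

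To assess whether the same regions were bound at both stages, peaks were counted as shared when at least 1 bp overlapped. None of the peaks within 100 kb of a ligand gene overlapped a peak of the other stage. Within 500 kb there was 1 overlapping pair, at Pmepa1 upstream of Bmp7, so that 1 of 7 E9.5 peaks and 1 of 28 E10.5 peaks were shared, compared with 18.7% and 6.26% of the whole lists. Accordingly, 1 of 9 ligand genes (Bmp7) had a shared region within 500 kb, compared with 20.9% of protein-coding genes by the E9.5 peaks and 20.9% by the E10.5 peaks. The pair consists of the E9.5 peak chr2:173099870-173102875 with rank 4 and the E10.5 peak chr2:173099861-173110408, which was 10548 bp wide with a score of 57.5 and rank 3535. These ranks lie at 0.193% and 57.2% of lists of different length and were not compared, and the pair was lost when each peak had to cover 50% of the other or when the centres could differ by 250 bp at most.

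The SMAD binding sequences shown above were searched on both strands of the central 300 bp of each peak. CAGAC was present in 5 of 7 E9.5 windows and 15 of 28 E10.5 windows of the ligand genes, compared with 60.6% and 53.2% of all windows of the lists. The longer form CAGACC, which contains CAGAC, was present in 1 and 5 of these windows, compared with 20.9% and 19.7% of all. GGCGCC was present in 0 of 7 and 2 of 28 windows, compared with 12.6% and 13.1%, and GTCTAGAC in 0 of 7 and 0 of 28, compared with 1.21% and 0.42%. TGACAG, the core recognised by TALE homeodomain proteins such as PKNOX1, was present in 2 and 4 windows, compared with 20.2% and 18.9%. With 7 and 28 windows, only large differences from the lists could be seen. A match is a description of the sequence and not evidence of binding.

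Over the whole peak, the median density of CAGAC was 4.05 per kb for the 7 E9.5 peaks and 2.39 per kb for the 28 E10.5 peaks, compared with 2.87 and 2.74 per kb over the lists. The E9.5 peak at Bmp4 held 9 matches or 1.91 per kb. The E9.5 peaks upstream of Bmp7 with ranks 4, 235, 343 and 445, to which Pmepa1 is the nearest gene, held 6.65, 5.71, 5.45 and 1.96 per kb. Those of ranks 343 and 445 are intergenic, -58.8 and -64.1 kb from the 5′ end of Pmepa1. The stretch of the Pmepa1 region shown above holds 7 matches to CAGAC, and those of Bmp4 and Gdf6 hold 2 each. At E10.5, the Bmp4 peak at -51.2 kb held 2.22 per kb, the Gdf6 peak 2.62 per kb and the Gdf11 peak at the 5′ end 0.829 per kb. The Gdf11 peak held 3 matches to GGCGCC, 2 of them in the stretch shown. The GC content of the central window was 85.7% at Gdf11, 73% at Gdf6 and 66.7% in the E9.5 peak at Bmp4. In the peaks within 5 kb of the 5′ end of another gene, the GC content ranged from 41% near Myl6 to 79.3% at Mapk6. The medians over all peaks of the ligand genes, 56% at E10.5 and 51% at E9.5, were close to those of the lists, 55% and 53%. The highest density among the 28 E10.5 peaks was 5.55 CAGAC per kb, at chr13:38212569-38214189 (score 50.1, rank 5347). This peak lies -224 kb from Bmp6 and closer to Dsp, -29.8 kb from the 5′ end of that gene. Its density was reached by 2.72% of the list. As the peak was picked as the densest of 28, this share does not show that it is unusual.

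The ligand genes were placed beside other genes of the pathway. Among all protein-coding genes, 20.5% at E9.5 and 52.9% at E10.5 had a peak within 100 kb, and 2.64% and 13.0% within 5 kb. Of 24 further ligand genes of the TGF-β superfamily, 6 were within 100 kb of an E9.5 peak and 19 within 100 kb of an E10.5 peak. Within 5 kb these numbers were 0 and 4 (Bmp8a, Inhbb, Tgfb2 and Tgfb3 at E10.5). Of 11 receptor genes, 2 had an E9.5 peak within 100 kb, Bmpr2 (best rank 15) and Acvr2a (rank 425), both type II receptors, and 8 had an E10.5 peak, with Acvr2b at rank 54 and Bmpr2 at rank 108. Of 14 genes for secreted antagonists and modulators, 6 had such a peak at E9.5 and 9 at E10.5. Among these, Grem1, which encodes the BMP antagonist gremlin 1, had best peaks of ranks 3 and 25. Fst, which encodes the activin antagonist follistatin, had its best peaks at rank 1878 at E9.5 and rank 50 at E10.5. Nog, which encodes noggin, had peaks of ranks 1174 and 3603. Of 8 target and feedback genes (Id1, Id2, Id3, Id4, Msx1, Msx2, Smad6 and Smad7), 7 were within 100 kb of an E9.5 peak, all 8 were within 100 kb of an E10.5 peak, and the best peaks of Id4 were of ranks 6 and 7. The list of target genes was drawn up with results of these peaks known, so its count is not independent evidence. The best peak within 100 kb had a median rank at 0.531% of the E9.5 list for the target genes with a peak, 10.6% for the receptor genes, 44.3% for the further ligand genes and 66.7% for the antagonist genes, and Bmp4, the only one of the 9 ligand genes with such a peak, was at 22.6%. At E10.5 these values were 0.299% for the target genes, 1.37% for the antagonist genes, 12.9% for the receptor genes and 26.8% for the further ligand genes, and 36.2% for the 4 ligand genes with a peak. The lists are small, neighbouring genes such as Inhbc and Inhbe share peaks, and no list was tested against another.

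**Figure D5:**
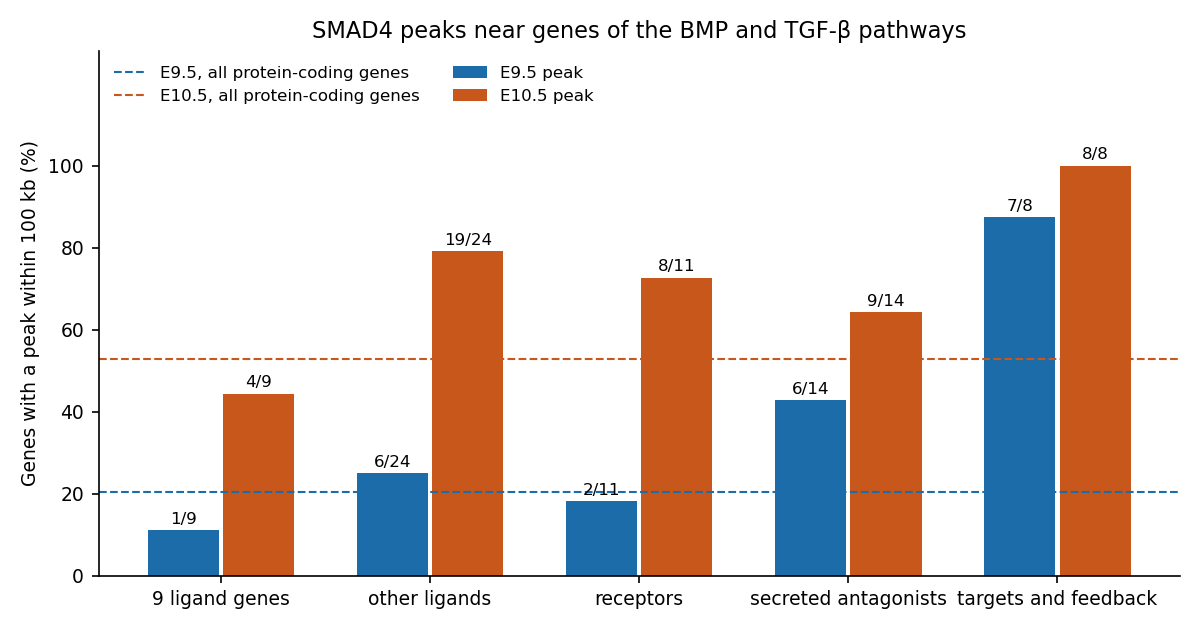
Share in percent of the genes of each list with a peak within 100 kb of the 5′ end, at E9.5 (blue bars) and E10.5 (orange bars), with the number of genes above each bar. Dashed lines give the share among all protein-coding genes, 20.5% and 52.9%. The bars of the 9 ligand genes, with 1 and 4 genes, are close to these lines, and the list of 8 target and feedback genes was drawn up with these peaks known.

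By the numbers of peaks within 100 and 500 kb at both stages, which are 4 counts per gene, the further ligand genes most like each of the 7 ligand genes with a peak within 500 kb were identified. Bmp2 and Inhba, with 4 counts of 0, were not compared in this way, and Bmp15 also had 0 in all 4. Tgfb2 had the same 4 counts as Gdf5. The smallest summed difference in these counts was 1 for Bmp4 and for Gdf6 (Gdf2 and Gdf10 in both cases), 1 for Bmp5 (Bmp3, Inhbb and Mstn), 2 for Bmp6 (Nodal), 2 for Gdf11 (Inha) and 3 for Bmp7 (Nodal and Tgfb3). Gdf2 and Gdf10 have the same best E10.5 peak within 100 kb (rank 811), so that they are not independent of each other.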

How the data were processed

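The authors sequenced SMAD4-3xFLAG ChIP and input samples, trimmed the reads and aligned them to mm9 with Bowtie 1.1.0, retaining unique matches. They called peaks in each replicate with MACS 1.4 against input DNA of the same sample and combined the replicates of a stage with MSPC, keeping replicated regions. The deposited score of each peak is given without a unit. According to their methods each merged region carries its best MACS p-value, and scores were therefore compared by rank within a list only. Peaks found in a single replicate are absent, so weak binding can be missed.

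The lists were placed on mm9 (NCBIM37), the build of the authors' alignment, with the GENCODE annotation of the same build. On it, 0 peaks ran past a chromosome end, which alone does not identify a build. The tools were pysam 0.24.0, pandas 2.3.3, NumPy 2.4.6, SciPy 1.17.1 and Matplotlib 3.10.9 under Python 3.11.15. Positions count from 1. Distances run from the peak centre to the 5′ end of the gene record, and protein-coding genes on chromosomes 1 to 19 and X gave the background. Samples were grouped by stage from their titles. No test was made, since each stage is 1 merged list. The functions for distance and overlap were tested on simulated data. The ligand genes, the pathway lists and the choice of sequences were made with earlier results of these data known. The rule named every peak within 100 kb and, within 500 kb, the best-scored peak per gene and stage and each overlapping pair, and printed the pair. Other regions named, the other sequences and the choice of the stretch richest in matches in place of the central part were added after their values were seen. Alternatives covered score limits, list length, distance, reference point, overlap and motif window.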

Additional observations from a re-analysis of the deposited data

How the results depend on the processing

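Of 70 alternatives over 12 counts, 40 left the count within 1.5 times its value and 30 moved it further. With only peaks scored 100 or more, 0 genes and 0 peaks were left within 100 kb at either stage, 1 gene and 1 peak within 500 kb at each stage, and 0 peaks were shared. With lists of equal length, made from the best-scored E10.5 peaks, 2 genes (3 peaks) remained within 100 kb and 8 peaks within 500 kb at E10.5, and 0 peaks were shared at either stage. With the better-scored 50% of each list, 4 E10.5 peaks were within 100 kb and 12 within 500 kb. With the distance reduced to 50 kb, 2 genes and 4 peaks were left at E10.5, and with 1 Mb, 56 E10.5 peaks were counted. When the ligand gene had to be the nearest protein-coding gene, 1 gene and 1 peak were left within 500 kb at E9.5. At E10.5 this left 4 peaks within 100 kb, and 3 genes and 4 peaks within 500 kb. The overlapping pair at Pmepa1 was lost (0 peaks at each stage) with a reciprocal overlap of 50% or with centres within 250 bp. CAGAC was present in all 28 E10.5 peaks when the whole peak was searched, as in 98.2% of the list. Bmp2 had 4 E10.5 peaks within 1 Mb, and most other settings only remove peaks, so that they could not change the counts of 0 at Bmp2 and Inhba. The peak at Bmp4 at E9.5 scored 70.2 and was left out only with the score limit of 100. No paired analysis was possible because the replicates had been merged before deposit, and for the same reason no replicate could be left out. The unknown depth limits what the absence of a peak can show.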

Other observations

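Peaks between 500 kb and 1 Mb of the ligand genes are given here as values. Bmp2 had no E9.5 peak and 4 E10.5 peaks in this interval, all upstream. They lay at -606 kb at the 5′ end of Fermt1 (score 55.5, rank 3893), at -705 kb at the 5′ end of Crls1 (score 52.1, rank 4706), at -759 kb near Chgb (score 57.8, rank 3501) and at -974 kb near Gpcpd1 (score 57, rank 3616), and 0 of the 4 overlapped an E9.5 peak. Gdf5 gained an E9.5 peak at -870.2 kb (score 46.9, rank 1721) and 7 E10.5 peaks, the best of which lay at -802 kb near Myl9 (score 110, rank 355). The E9.5 peak is closest to Tgif2, which encodes a TALE homeodomain repressor of SMAD-dependent transcription, and an E10.5 peak of rank 1162 lies 2.61 kb from the 5′ end of Tgif2. Gdf6 gained 3 E10.5 peaks between -806 and -934 kb, of which the nearest protein-coding genes are Clvs1 and Chd7. Bmp7 gained 7 E10.5 peaks, with ranks from 835 to 6109, Gdf11 gained 3 (ranks 735, 925 and 1640), Bmp6 gained 2 (ranks 3986 and 5191), and Bmp4 gained 1 E9.5 peak (rank 878) and 2 E10.5 peaks (ranks 5214 and 5392). Bmp5 and Inhba gained none at either stage.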
